A study of Drosophila melanogaster with 6 samples.

Results

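The label difference within same-numbered pairs of brain libraries was described from 4 of the 6 samples of the series. The 4 libraries were 2 labelled rRNA-depleted and 2 labelled polyA-enriched, each carrying the number 1 or 2, and the number was used as a block so that each library was compared with its partner. Brains of 5-day-old Canton-S adults, a wild-type laboratory strain, were pooled at about 15 per sample and extracted with TRIzol, and the total RNA was split by the authors between the 2 library types. PolyA enrichment keeps RNAs that end in a polyA tail, and rRNA depletion removes rRNA with custom DNA probes and RNase H, which digests the RNA of an RNA-DNA hybrid. Of 16725 genes in the table, 9737 reached 10 counts in 2 or more of the 4 libraries and were tested. In what follows, pair 1 and pair 2 are the libraries of each number, and where values of a pair are set against each other the library labelled rRNA-depleted comes first.

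The adult fly brain consists of neurons and glia, and it is dissected out of a head capsule that also holds the compound eyes and ocelli, fat body, muscle, tracheae, cuticle and the front of the gut. Each of these tissues has genes that are used little or not at all by neurons, such as opsins in photoreceptors, yolk and serum proteins in fat body and sarcomere proteins in muscle. Most mature mRNAs carry a polyA tail and can be captured by both library types. Lists of such genes were therefore used to describe which tissues the label difference touched.

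The total count was between 11838449 and 14295047 per library. Levels are given as CPM, the count scaled to a common library size by the TMM method. The neuronal genes elav and nSyb and the glial gene repo were present in all 4 libraries, with at least 565, 1130 and 123 CPM. In a principal component analysis of log2 CPM, the component with 51.2% of the variance separated the numbers, and the next, with 46.3%, separated the labels. RNAs without a polyA tail followed the number: the small nuclear RNA 7SK had 105 against 121 counts in pair 1 and 12378 against 14595 counts in pair 2. The libraries thus went against their labels in this respect, and each is named by its label below. Whether labels or columns were exchanged was not tested. If the number rather than the label marks the library method, each pair holds 2 libraries of 1 method, and every difference between the labels given below is a difference between such libraries and not between the methods. If the labels hold, each pair holds 1 library per label, so an effect of the library method and any other difference between the libraries of a pair cannot be told apart.

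With the number as a block, 1180 genes were called lower under the rRNA-depleted label, at a Benjamini-Hochberg adjusted p under 0.05 and a log2 fold change under -1 in edgeR's quasi-likelihood test, which is 12.1% of the genes tested. Only 34 genes, 0.349%, were called higher by the mirror rule. At the same adjusted p and any size of change, 1867 genes (19.2%) were lower and 1085 (11.1%) were higher, and 63.2% of these fell on the lower side. That last share was 50.3% when DESeq2's size factors replaced TMM in the same fit and 72.7% with library totals. Without the block, edgeR called 0 genes in either direction (1103 genes had an unadjusted p under 0.05), so every call below depends on the pairing.

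Of the genes called lower, 1177 were lower in both pairs and 3 had opposite signs. Over all genes tested, 33.6% were lower in both pairs and 39.6% were higher in both. The median log2 ratio of the called genes was -2.44 in pair 1 and -2.08 in pair 2, against -0.01 and 0.07 over all genes. The calls were made on these same pairs, so the shared direction follows largely from the selection and carries no further evidence. The 3 genes with opposite signs were Ugt86Di, a UDP-glycosyltransferase gene, CG15210 and snoRNA:Psi28S-2626. The plot of the log2 ratios in both pairs shows the called genes along the diagonal.

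**Figure D1:**
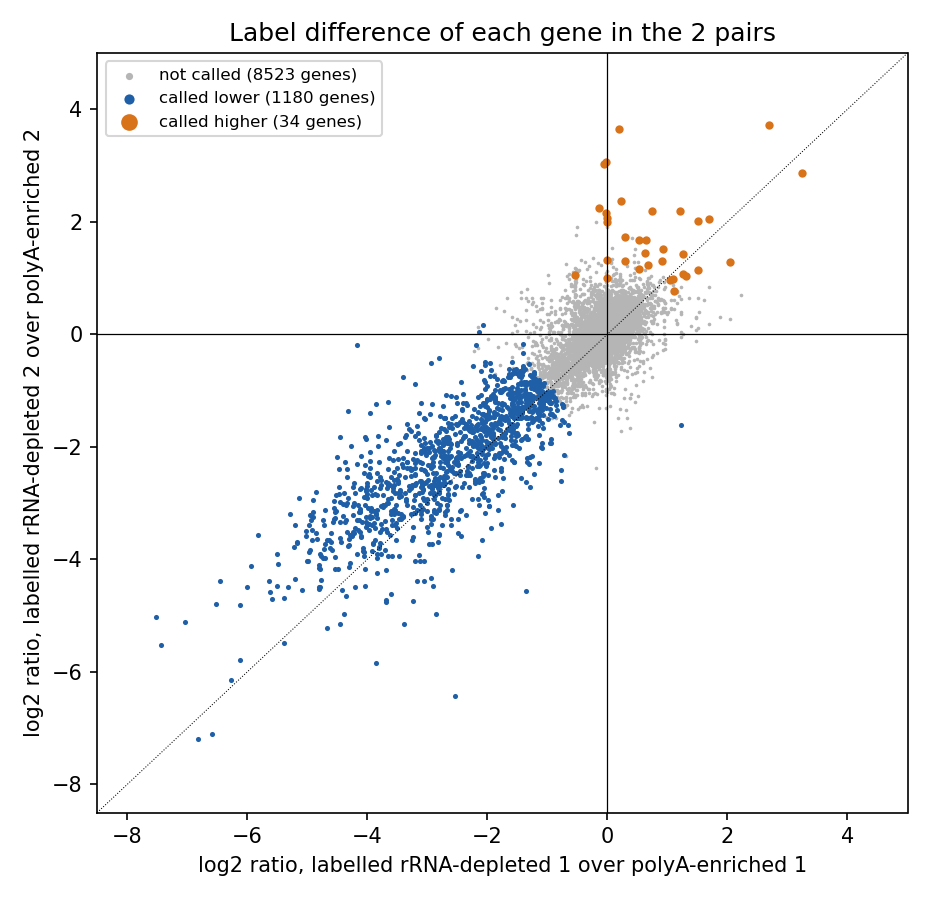
Log2 ratio of CPM (prior count of 2) of each of 9737 genes, library labelled rRNA-depleted over library labelled polyA-enriched, in pair 1 (x axis) and pair 2 (y axis); each point is a gene, coloured by its call, and the dotted line marks equal ratios. The 1180 genes called lower lie in the lower left quadrant except for 3, while several of the 34 genes called higher lie near 0 in pair 1.

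The genes called lower had a median log2 fold change of -2.48, or -2.47 with the 16 genes that had no count in either library labelled rRNA-depleted set to a floor of 3 counts per library. In 742 of them the log2 fold change was below -2, a count that was the same with that floor. Summed, they made up 1.08% against 5.78% of the CPM in pair 1 and 1.21% against 5.21% in pair 2. These sums describe the genes that the test selected and carry no further evidence. Of the 1180 genes called lower, 1150 were annotated as protein-coding, as were 9134 of all 9737 genes tested. Just outside the fold limit, 68 genes with an adjusted p under 0.05 lay between -0.9 and -1.

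The genes called lower were mostly of low level, with a median of 5.19 CPM against 28.1 CPM over all genes tested. Of the genes between 1 and 3 CPM, 31.1% were called lower, of those between 30 and 100 CPM 5.16%, and of those above 300 CPM 1.97%. They were spread over the chromosome arms, from 10.4% of the genes tested on X to 14.5% on 2R, and only the small chromosome 4 had fewer, with 2 of 92 genes. Of the 1180, 214 belonged to one of the tissue, neuronal, glial or other lists described here, and a further 133 to lists that were added later. Of all 9737 genes tested, 706 belonged to the former and a further 261 to the latter.

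**Figure D2:**
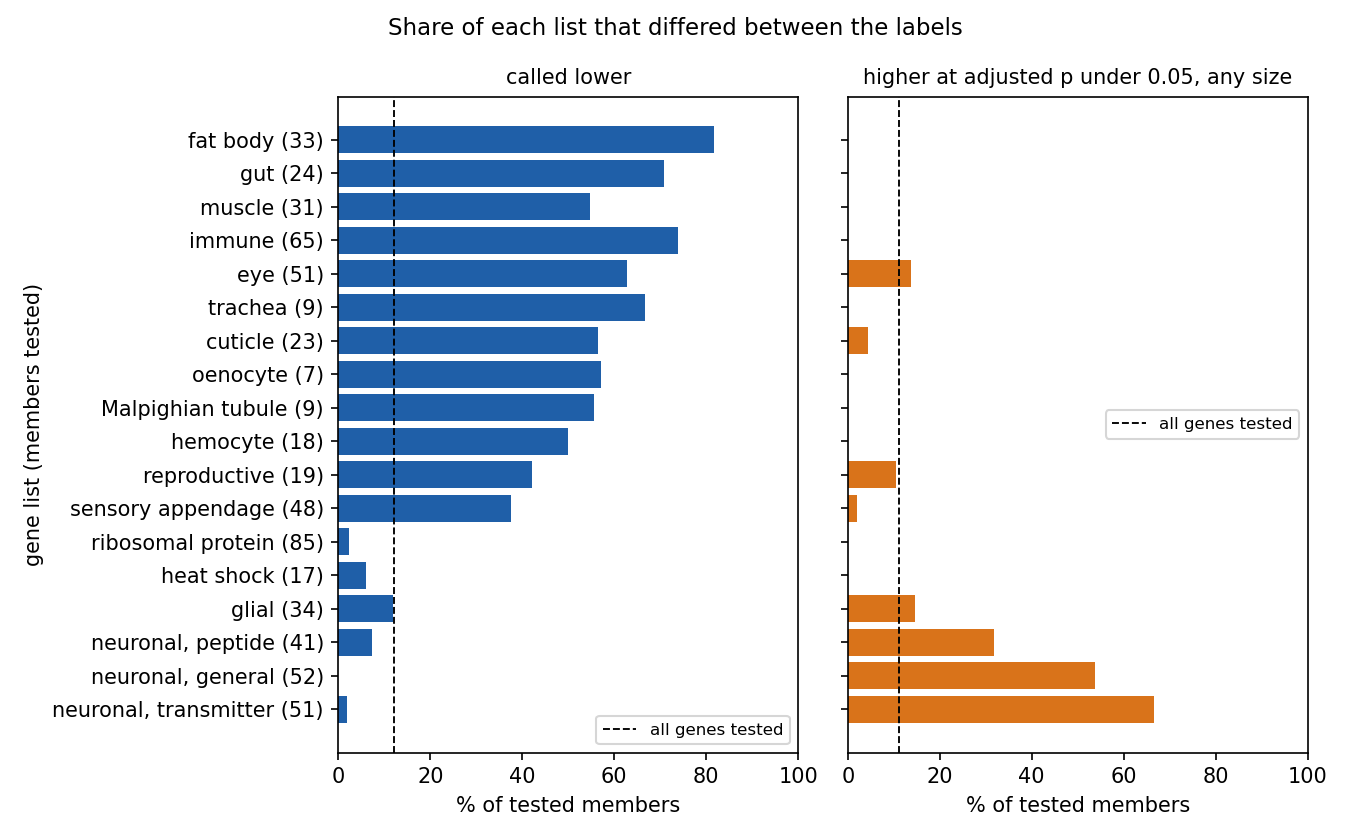
Share of the tested members of each gene list that was called lower (left) and that was higher at an adjusted p under 0.05 at any size (right), in percent; the number of members tested is in parentheses and the dashed line is the share of all genes tested. In 12 tissue lists, from fat body to sensory appendage, 37.5% to 81.8% were called lower, and the 3 neuronal lists have the largest shares on the right, 31.7% to 66.7%.

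Fat body genes were lower almost throughout. Of 33 members tested, 27 (81.8%) were called lower and 0 higher, with 32 lower in both pairs and a median log2 fold change of -3.24 against 0.04 over all genes. The fat body is the fly's counterpart of liver and adipose tissue and secretes the main proteins of the hemolymph. In such bulk samples, fewer cells of a type and less RNA per cell cannot be told apart.

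Among the called members were the 3 yolk protein genes, whose products are made in the female fat body and ovary and taken up by oocytes. Yp1, on chromosome X of dm6 (10053811 to 10055498, plus strand), had 362 against 5585 CPM in pair 1 and 752 against 4361 CPM in pair 2. The lower of the polyA-enriched values was above both rRNA-depleted values, and the log2 fold change was -3.24 (SE 0.15, n = 2 pairs, adjusted p = 5.19e-29, edgeR). Yp2, on the same chromosome (10050951 to 10052636, minus strand), had 1677 against 36181 counts in pair 1 and 3745 against 30622 counts in pair 2, and Yp3 had 211 against 3367 CPM and 277 against 2358 CPM. Their log2 fold changes were -3.71 (SE 0.15) and -3.54 (SE 0.13). In all 3 genes the ratio was larger in pair 1, as for Yp1 with -3.95 against -2.54.

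The storage and lipid transport proteins of the hemolymph moved the same way. Lsp2, a hexameric larval serum protein, had 160 against 7087 counts in pair 1 and 395 against 6987 counts in pair 2, a log2 fold change of -4.72 (SE 0.15, adjusted p = 1.27e-37, edgeR). Of its relatives, Lsp1gamma had no count in either library labelled rRNA-depleted and 208 and 249 counts in their partners, at least 76.0-fold lower against the floor of 3 counts per library. Lsp1alpha had 1 count in each library labelled rRNA-depleted and 771 in both others together, a 384-fold ratio with a 95% counting interval of 106 to 3173. The Lsp1 genes are close paralogs, and how reads that match several places were counted is not given in the sources used here.

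Rfabg, annotated as apolpp, encodes the apolipophorin of the main hemolymph lipoprotein. It had 446 and 1108 CPM under the rRNA-depleted label and 2605 and 3795 CPM under the polyA-enriched label (log2 fold change -2.16, SE 0.12). CG3523, annotated as FASN1, encodes fatty acid synthase and fell by 1.38 on the log2 scale (SE 0.10). Members that were not called included Tsf1, the iron carrier transferrin, at -0.80, AcCoAS, which makes acetyl-CoA, at -0.04, and NLaz, a lipocalin, at -0.27.

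Genes of the eye divided into called members and others near 0. Of 51 members tested, 32 were called lower (62.7%, against 12.1% of all genes), and the median log2 fold change was -1.86. Without reaching the fold limit, 7 were higher at an adjusted p under 0.05 (13.7%, against 11.1% of all genes). The lower ones included every rhodopsin that was tested. The members that were not called included several components of the phototransduction cascade.

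The gene of the main rhodopsin, ninaE, expressed in the outer photoreceptors, lies on 3R (19886255 to 19888206, minus strand). It had 96.8 against 1104 CPM in pair 1 and 66.8 against 727 CPM in pair 2. The labels did not overlap and both pairs gave nearly the same ratio, -3.51 and -3.44, and the log2 fold change was -3.48 (SE 0.11, n = 2 pairs, adjusted p = 3.88e-38, edgeR). Rh2, the rhodopsin of the ocelli (3R, 18899423 to 18901019, plus strand), had 108 and 62.4 CPM against 649 and 339 CPM and a log2 fold change of -2.52 (SE 0.10). The rhodopsins of the inner photoreceptors, Rh3, Rh4, Rh5 and Rh6, had between 0.786 and 5.28 CPM under the rRNA-depleted label and between 10.9 and 46.7 CPM under the polyA-enriched label, with log2 fold changes from -3.36 to -2.17.

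Downstream of the rhodopsins, the light-activated channels and the proteins that end the response were lower too. The log2 fold change was -3.09 (SE 0.12) for trp and -3.08 (SE 0.12) for trpl, which encode the channels, and -2.66 (SE 0.11) for Arr1 and -2.70 (SE 0.10) for Arr2, the arrestins. Arr2 had 142 and 68.4 CPM under the rRNA-depleted label and 895 and 458 CPM under the polyA-enriched label. The myosin kinase ninaC changed by -2.48 (SE 0.11) and the scaffold inaD by -2.05 (SE 0.15).

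Other steps of the same cascade were not called. The phospholipase C gene norpA had 557 against 613 CPM in pair 1 and 964 against 858 CPM in pair 2. Its pairs went in opposite directions, -0.14 and 0.17, and the log2 fold change was 0.01 (SE 0.10, adjusted p = 0.933, edgeR). The diacylglycerol kinase rdgA was at -0.04 (SE 0.10) and the G protein subunit Galphaq at 0.22 (SE 0.10, adjusted p = 0.0834, edgeR), while rdgB, a phosphatidylinositol transfer protein, was higher at 0.43 (SE 0.10, adjusted p = 0.000234, edgeR). These 4 genes were picked after their values were seen.

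**Figure D3:**
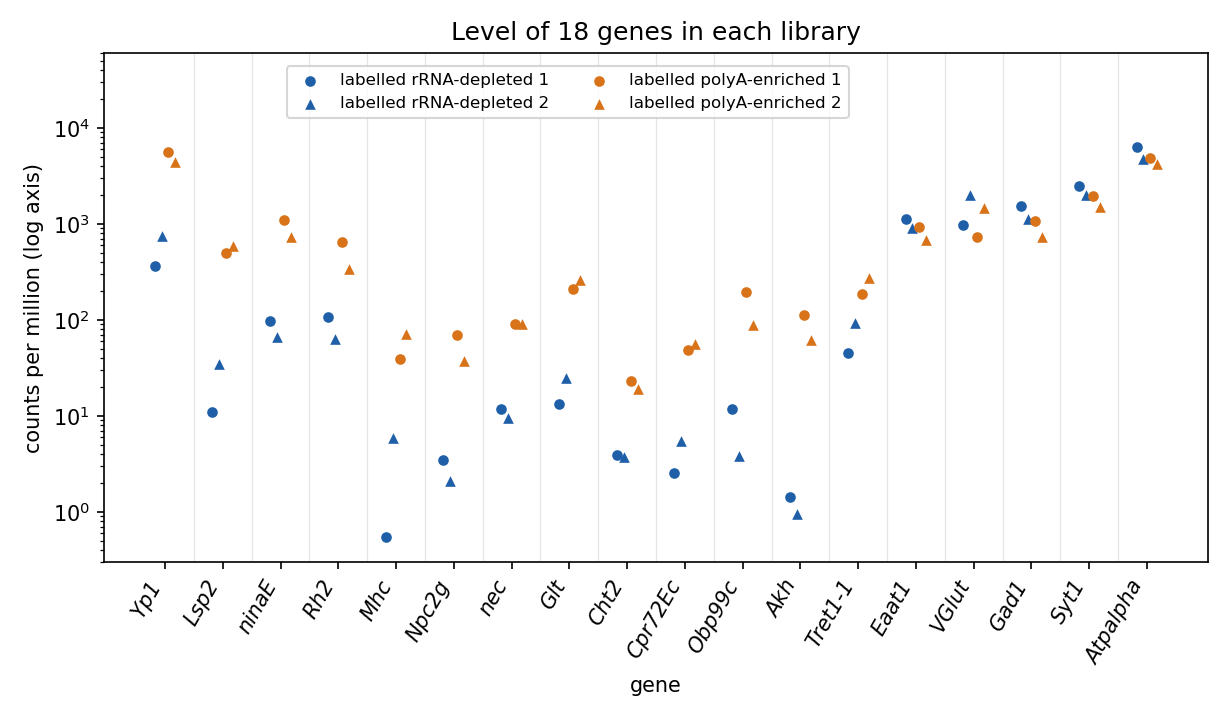
CPM of 18 genes in each of the 4 libraries on a log axis, with the label given by colour and the number by marker shape. From Yp1 to Tret1-1 both libraries labelled rRNA-depleted lie below both labelled polyA-enriched, whereas for Eaat1, VGlut, Gad1, Syt1 and Atpalpha each library labelled rRNA-depleted lies slightly above its partner of the same number. The genes were picked with their values known.

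Muscle genes, too, divided into called members and others near 0. Of 31 tested, 17 were called lower (54.8%) and 0 higher, and the median log2 fold change was -2.93. The called ones were mainly proteins of the sarcomere, the contractile unit of muscle.

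Mhc, the muscle myosin heavy chain (2L, 16766566 to 16788766, plus strand), had 0.549 against 39.4 CPM in pair 1 and 5.94 against 72.0 CPM in pair 2. All of its levels under the rRNA-depleted label were below those under the polyA-enriched label, and the log2 fold change was -4.30 (SE 0.21, n = 2 pairs, adjusted p = 4.44e-27, edgeR). Its ratio was -5.82 in pair 1 and -3.57 in pair 2. The muscle actin Act57B changed by -6.34 (SE 0.29), the thick filament protein Mf by -5.17 (SE 0.23), the myosin light chain Mlc2 by -4.17 (SE 0.22) and the titin-like sls by -3.27 (SE 0.19).

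Thin filament regulators followed, among them the troponins up, at -4.62 (SE 0.24), and wupA, at -4.83 (SE 0.28). TpnC47D, a troponin C, had no count in either library labelled rRNA-depleted and 52 and 21 counts in the others, at least 11.6-fold lower. Mp20, a calponin-like muscle protein outside the list, had 1 count in all under the rRNA-depleted label and 368 under the polyA-enriched label, a 366-fold ratio with a wide 95% counting interval of 65.3 to 14500. Among the members not called were Msp300, a nesprin that links nuclei to the cytoskeleton, at 0.21 (SE 0.10), and RyR, the calcium release channel, at 0.20 (SE 0.09).

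Gut genes had the lowest median of the lists, -3.74, from 17 called lower of 24 tested (70.8%), but they were rare transcripts. Npc2g, a sterol-binding protein of the NPC2 family, was the most abundant called member, with 3.43 and 2.10 CPM under the rRNA-depleted label and 70.0 and 37.6 CPM under the polyA-enriched label (log2 fold change -4.28, SE 0.18). The amylase Amy-p, which digests starch, had 1.23 and 0.786 against 17.6 and 25.2 CPM. Its copy Amy-d gave -4.02 (SE 0.30), but these genes are near-identical and reads may have been shared between them. The digestive protease Jon65Aiv had 12 against 199 counts in pair 1 and 1 against 163 in pair 2.

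Of the cuticle genes, 23 of 145 passed the count filter, 13 were called lower (56.5%) and the median log2 fold change was -1.37. Of the called members, Cpr72Ec, which encodes a cuticular protein, had the highest mean level, with 2.54 and 5.50 CPM under the rRNA-depleted label and 48.1 and 55.8 CPM under the polyA-enriched label (log2 fold change -3.75, SE 0.18). Cpr49Ae changed by -5.77 (SE 0.29), Cpr67B by -4.07 (SE 0.27), Cpr47Ef by -2.95 (SE 0.36) and Cpr64Ad by -1.21 (SE 0.38). With the label difference tested by DESeq2, 8 cuticle genes were called in place of 13.

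Immune genes made up the longest list of called members, 48 of 65 tested (73.8%), with a median log2 fold change of -2.23 and 57 lower in both pairs. They ranged from recognition to effectors. Many of their products are secreted into the hemolymph by fat body or hemocytes.

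In the signalling cascade upstream of Toll, the serpin nec (2R, 7156477 to 7158241, minus strand) had 11.8 against 91.0 CPM in pair 1 and 9.52 against 90.5 CPM in pair 2. The values within a label were close, and the log2 fold change was -3.09 (SE 0.14, n = 2 pairs, adjusted p = 3.65e-29, edgeR). The proteases SPE and psh, which activate the Toll ligand, were at -3.79 (SE 0.27) and -4.13 (SE 0.34).

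Among the effectors, the antimicrobial peptide genes AttC, Dpt and Drs were at -4.06 (SE 0.32), -4.51 (SE 0.63) and -1.67 (SE 0.24), and the immune-induced peptide IM2, annotated as BomS2, at -4.25 (SE 0.24). CG16712, annotated as IM33, had 4.53 and 4.10 against 87.1 and 49.1 CPM. The opsonin-like Tep2 changed by -1.90 (SE 0.13), the melanization enzyme PPO1 by -1.45 (SE 0.11) and the serpin Spn43Ab by -1.11 (SE 0.10).

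Hemocyte genes moved less, with a median of -0.99 and 9 called lower of 18 tested (50.0%), although 16 were lower in both pairs. Glt, a glutactin of the extracellular matrix, had 193 against 3006 counts in pair 1 and 286 against 3092 counts in pair 2 (log2 fold change -3.67, SE 0.13). NimB2, a nimrod family protein, had 8.57 and 7.16 against 81.2 and 65.6 CPM. The clotting factor Hml was near the fold limit at -1.07 (SE 0.10), as were Ppn, a papilin, at -1.16 (SE 0.10) and BM-40-SPARC, annotated as SPARC, at -1.08 (SE 0.10). Pxn, a peroxidasin, was at 0.13 (SE 0.10) and the scavenger receptor crq at -0.12 (SE 0.11), and neither passed the test.

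Tracheal genes were few, with 6 called lower of 9 tested (66.7%) and a median log2 fold change of -1.48. Their summed level was 20.6 against 64.4 CPM in pair 1 and 27.4 against 91.3 CPM in pair 2. The chitinase Cht2 changed by -2.47 (SE 0.21), the FGF receptor btl by -1.48 (SE 0.28), pio and uif, membrane proteins of the tracheal epithelium, by -3.30 (SE 0.33) and -3.34 (SE 0.37). The tracheal transcription factor trh, with 12.3 and 13.8 CPM against 20.7 and 32.7 CPM, was at the fold limit.

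Sensory appendage genes, 18 called lower of 48 tested (37.5%, median -0.34), divided by gene family. The called ones were mainly odorant-binding proteins, secreted by support cells of the sensilla. Obp99c had 11.7 and 3.84 CPM under the rRNA-depleted label and 195 and 88.7 CPM under the polyA-enriched label (log2 fold change -4.22, SE 0.15), Obp19d changed by -5.08 (SE 0.20), Obp56d by -4.93 (SE 0.27), Obp99a by -3.22 (SE 0.18) and Obp18a by -1.37 (SE 0.15). Os-C, an antennal gene, had no count under the rRNA-depleted label and 65 in all under the other, at least 10.2-fold lower. None of the receptor genes tested was called, with values from -0.73 for Or45b to 0.78 for Gr32a, and the olfactory co-receptor Orco was at 0.01 (SE 0.35). These 3 genes were picked after their values were seen.

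Smaller lists differed in how many members were called. Oenocyte genes, which make cuticular hydrocarbons, had 4 called lower of 7 tested, led by the desaturase Desat1 with 471 and 346 CPM against 1107 and 772 CPM (log2 fold change -1.20, SE 0.10). Malpighian tubule genes had 5 called lower of 9, among them ry, xanthine dehydrogenase, at -1.22 (SE 0.15) and CG7777, annotated as the aquaporin Prip, at -2.59 (SE 0.25). Of 19 reproductive genes tested, 8 were called lower and 2 higher. The germline determinant osk had 3 against 353 counts in pair 1 and 5 against 196 in pair 2, and the higher ones were Sfp77F, a seminal fluid protein, and Mst77F, a sperm chromatin protein. A single salivary gland gene of 20 listed passed the count filter, Sgs4, a glue protein, and it was not called, at 0.33 (SE 0.37).

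Among the largest changes were Akh and jhamt, 2 hormone genes of the glands attached to the brain. Akh, the adipokinetic hormone of the corpora cardiaca (3L, 4141467 to 4142070, plus strand), had 1.44 against 111 CPM in pair 1 and 0.961 against 61.8 CPM in pair 2. The levels differed by far more than within a label, and the log2 fold change was -6.16 (SE 0.19, n = 2 pairs, adjusted p = 1.64e-37, edgeR). For jhamt, the juvenile hormone methyltransferase of the corpora allata (2L, 16365903 to 16367039, plus strand), 1 count stood against 548 in pair 1 and 2 against 177 in pair 2, a 240-fold ratio with a 95% counting interval of 81.9 to 1169. A corpus allatum list was added after the values were seen. Of its 6 genes tested, only jhamt was called lower (16.7%, against 12.1% of all genes), and the median log2 fold change was -0.58.

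Of the other genes named because of their size of change, the ones with no count in either library labelled rRNA-depleted were CG30334, CG34227, Cyp312a1 and Cyp9b1, the last 2 being cytochrome P450 genes. They were at least 13.4-fold, 7.67-fold, 8.81-fold and 8.16-fold lower. The most abundant called genes outside the tissue groups were genes of protein synthesis, folding and neuronal activity. Ef1alpha48D, annotated as eEF1alpha1, a translation elongation factor, had 852 and 683 against 2348 and 1696 CPM (log2 fold change -1.39, SE 0.10). The chaperone Hsp83 changed by -1.73 (SE 0.10) and Hr38, a nuclear receptor gene induced by neuronal activity (2L, 20683462 to 20714588, minus strand), by -1.87 (SE 0.10).

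Ribosomal protein genes shifted together by a smaller amount. Of 85 tested, 73 were lower at an adjusted p under 0.05 at any size, but 2 passed the fold limit, and the median log2 fold change was -0.48, or -0.41 with DESeq2's size factors and -0.53 with library totals. The 2 were RpL13A, at -1.12 (SE 0.11), and the germline paralog RpS5b, at -3.87 (SE 0.41). Of 17 heat shock genes 1, Hsp83, was called lower (5.88%, against 12.1% of all genes), and 8 were lower at any size, against 19.2%. Of 6 histone genes 1, BigH1, an embryonic linker histone, was called lower (16.7%).

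**Figure D4:**
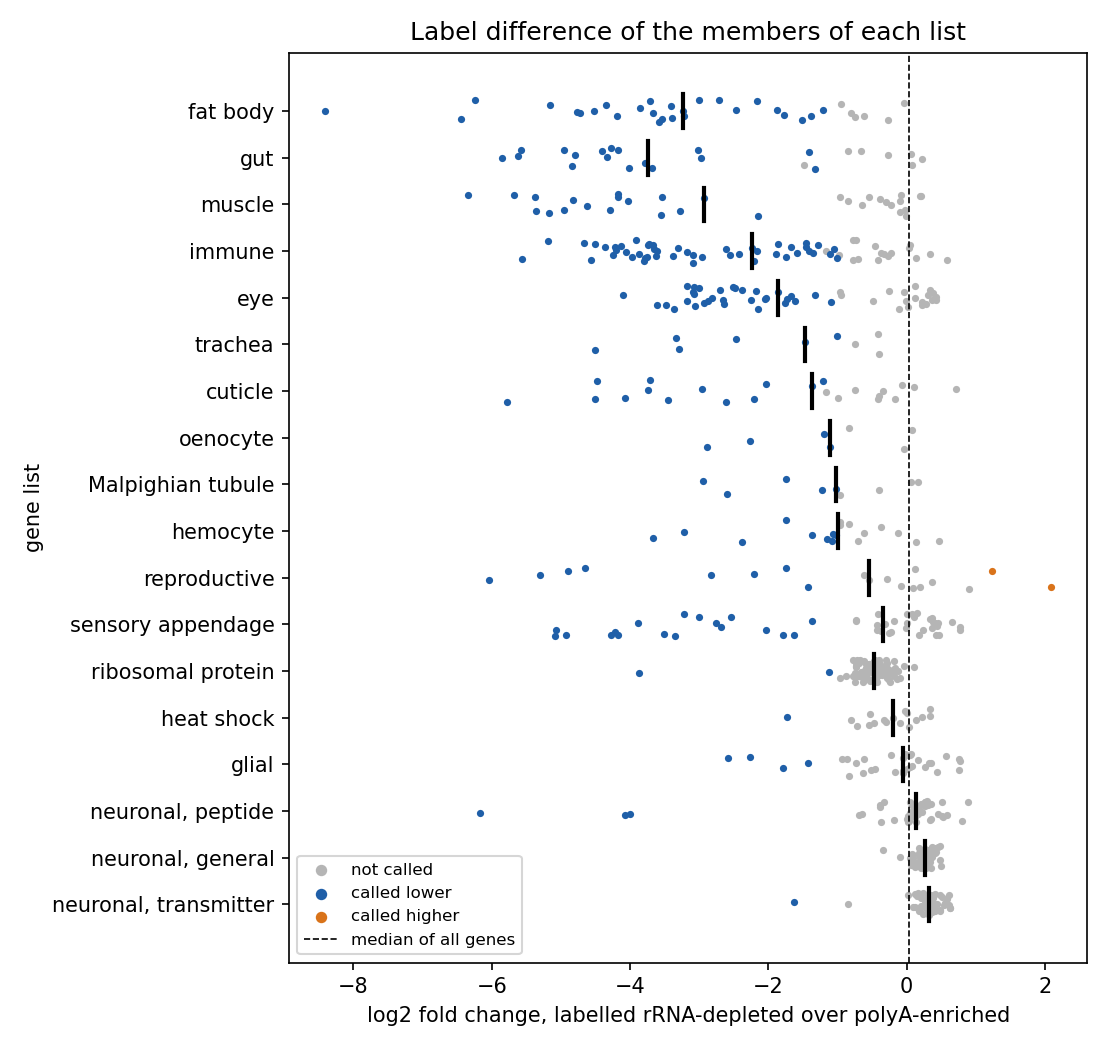
Log2 fold change of each tested member of 18 gene lists, labelled rRNA-depleted over polyA-enriched, with a gene that had no count under a label set to the floor of 3 counts per library; points are genes coloured by call, black bars are list medians and the dashed line is the median of all genes, 0.04. Medians run from -3.74 for gut and -3.24 for fat body to 0.26 and 0.32 for the general and transmitter neuronal lists.

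Neuronal genes lay on the other side of 0, by a small amount. No gene of the general neuronal list reached the fold limit. At an adjusted p under 0.05, 28 of 52 were higher (53.8%, against 11.1% of all genes) and 1, the adhesion gene Fas2, was lower. The median log2 fold change was 0.26, and 48 of the 52 were higher in both pairs, against 39.6% of all genes. The summed level of the list was 60251 against 50172 CPM in pair 1 and 65473 against 53671 CPM in pair 2, so that these sums did not overlap between the labels.

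Synaptic genes showed this size of change. Syt1, the calcium sensor of vesicle release, had 2456 against 1963 CPM in pair 1 and 1973 against 1488 CPM in pair 2. The labels barely failed to overlap, and the ratios were 0.32 and 0.41 (log2 fold change 0.36, SE 0.10, adjusted p = 0.00281, edgeR). The fusion regulator cpx was at 0.36 (SE 0.10) and unc-13, which primes vesicles, at 0.26 (SE 0.10, adjusted p = 0.0427, edgeR). Atpalpha, the sodium pump, and its partner subunit nrv3 were at 0.28 and 0.32 (SE 0.10 for both), and the transcription factor pros at 0.36 (SE 0.10). For elav, the pan-neuronal RNA-binding protein, the log2 fold change of 0.17 (SE 0.10, adjusted p = 0.176, edgeR) did not pass the test.

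Transmitter genes had the largest share of higher members, 34 of 51 (66.7%, against 11.1% of all genes). Their median log2 fold change was 0.32, and 45 were higher in both pairs, against 39.6% of all genes. The vesicular glutamate transporter VGlut (2L, 2400295 to 2410662, plus strand) had 980 against 722 CPM in pair 1 and 2009 against 1469 CPM in pair 2. The labels overlapped because the level differed more between the numbers, and within the pairs the ratios were 0.44 and 0.45 (log2 fold change 0.45, SE 0.10, adjusted p = 0.000191, edgeR). Gad1, which makes GABA (3L, 4074077 to 4088744, minus strand), had 1515 and 1115 against 1072 and 725 CPM (log2 fold change 0.56, SE 0.10).

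Further members were higher at the adjusted p. VAChT, which loads vesicles with acetylcholine, was at 0.54 (SE 0.10), Cha, annotated as ChAT, which makes acetylcholine, at 0.58 (SE 0.09), CG7708, annotated as the choline transporter ChT, at 0.61 (SE 0.10), and Ddc, which makes dopamine and serotonin, at 0.63 (SE 0.09). Cha, CG7708 and Ddc were picked after their values were seen. Not past the test were Ace, acetylcholinesterase, at 0.17 (SE 0.10), and the receptor subunit nAChRalpha5, at 0.20 (SE 0.10). The members lower at the adjusted p were the receptor subunit nAChRbeta3, called at -1.63 (SE 0.19), and Hdc, which makes histamine, the transmitter of photoreceptors, at -0.85 (SE 0.21).

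Neuropeptide genes were mixed, with 13 of 41 higher (31.7%, against 11.1% of all genes) and a median of 0.14. At the same adjusted p, 9 of the 41 were lower, close to the 19.2% of all genes. Of the genes for peptide processing, IA-2, a dense-core vesicle protein, had 10790 and 9945 CPM against 8229 and 8049 CPM (log2 fold change 0.35, SE 0.10, adjusted p = 0.00613, edgeR), and the convertase amon was at 0.51 (SE 0.10). The carboxypeptidase svr was at 0.26, Pal2, which acts in peptide amidation, at 0.27 and the peptide precursor sNPF at 0.34 (SE 0.10 for each). The largest rise was that of Tk, the tachykinin precursor, at 0.89 (SE 0.10). The 3 called lower were Akh, described above, Nplp3, with 30 and 3 counts against 328 and 173, and Nplp4 at -4.07 (SE 0.80).

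Glial genes had no common direction. Of 34 tested, 4 were called lower (11.8%, against 12.1% of all genes). At any size, 12 of the 34 were lower, a larger share than the 19.2% of all genes. Higher at any size were 5 (14.7%, against 11.1% of all genes). In both pairs, 15 were lower and 10 higher, against 33.6% and 39.6% of all genes. The median log2 fold change was -0.05, which turned to 0.02 with DESeq2's size factors.  The 5 higher ones were Gat, alrm, axo, Nrx-IV and Eaat1, and the 4 called lower were Tret1-1, Indy, Gli and Lsd-2.

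The glial GABA transporter gene Gat, listed as CG1732 (chromosome 4, 629691 to 635350, plus strand), had 791 against 540 CPM in pair 1 and 752 against 382 CPM in pair 2. The labels did not overlap, and the log2 fold change was 0.76 (SE 0.10, n = 2 pairs, adjusted p = 2.51e-09, edgeR). The astrocyte gene alrm was at 0.56 (SE 0.10), the axon-associated axo at 0.35 (SE 0.10), the septate junction gene Nrx-IV at 0.44 (SE 0.10) and the glutamate transporter Eaat1 at 0.32 (SE 0.10). The glial master regulator repo, at -0.05 (SE 0.10), Gs2, glutamine synthetase, at 0.05 (SE 0.10) and nrv2, a sodium pump subunit, at -0.05 (SE 0.10) did not pass the test.

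In the other direction, the trehalose transporter Tret1-1, found in surface glia, had 44.9 and 93.5 CPM under the rRNA-depleted label and 185 and 270 CPM under the polyA-enriched label (log2 fold change -1.78, SE 0.11). Indy, a citrate transporter that fat body also uses, was at -2.59 (SE 0.14), Gli, a protein of tricellular junctions, at -2.26 (SE 0.24) and the lipid droplet protein Lsd-2 at -1.43 (SE 0.11). The blood-brain barrier genes Mdr65 and moody were lower without reaching the fold limit, at -0.93 (SE 0.12) and -0.45 (SE 0.12). Obp44a and bnb were at -0.73 (SE 0.10) and -0.63 (SE 0.10).

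The counts of neuronal and glial genes depended on the count filter. With at least 10 counts required in all 4 libraries, 2 genes of the general list, 14 of the transmitter list, 6 of the peptide list and 3 of the glial list were higher, and with 1 count in any library, 8, 24, 7 and 3. The medians of the neuronal lists stayed above 0 under both filters and under each of the 3 other scalings.

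The 34 genes called higher were a different kind of set. They comprised 16 protein-coding genes, 7 non-coding RNA genes, 7 snoRNA genes and 4 pseudogenes, and none was a neuronal or glial list member. All 34 were higher in pair 2, whereas 25 were higher in pair 1, 5 were lower there and 4 had no count on either side. Their median log2 ratio was 0.66 in pair 1 and 1.59 in pair 2.

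The 4 pseudogenes, annotated as copies of rRNA genes, were highest in a single library. CR41602, an 18S rRNA pseudogene (X, 23211192 to 23213166, plus strand), had 4504 against 4501 counts in pair 1 and 31649 against 3949 counts in pair 2. The ratio was -0.03 in pair 1 and 3.06 in pair 2. CR41609, CR40741 and CR40677 were also highest in the library labelled rRNA-depleted 2, with ratios of 3.03, 3.66 and 2.25 in pair 2. Their counts are uncertain, since rRNA genes share their sequence.

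The snoRNAs called higher had few or no counts in the libraries of pair 1. For snoRNA:Or-aca5, a box H/ACA RNA, the counts were 5 and 162 under the rRNA-depleted label and 0 and 39 under the polyA-enriched label, and snoRNA:684 and snoRNA:Psi28S-2876 had at most 3 counts in a library of pair 1. Of 89 RNAs without a polyA tail that were tested, 7 were called higher, against 0.349% of all genes. Called lower was 1 (1.12%, against 12.1% of all genes). The median ratio was 0.00 in pair 1 and 0.31 in pair 2.

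Among the protein-coding genes called higher, CG5644 had nearly the same change in both pairs. It lies on 3L (8977395 to 8979880, minus strand) and had 51.3 against 23.9 CPM in pair 1 and 43.3 against 21.7 CPM in pair 2. The labels did not overlap, and the log2 fold change was 1.05 (SE 0.13, n = 2 pairs, adjusted p = 6.83e-10, edgeR). This gene was picked after its values were seen.

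The largest changes were those of genes with few reads. CG3088 had 19 and 11 counts under the rRNA-depleted label and none under the other, at least 4.90-fold higher, and CG8329 had 32 and 34 against 3 and 1 counts, a log2 fold change of 3.97 (SE 0.60). Sfp77F was at 2.09 (SE 0.38), the lncRNA CR44230 at 1.98 (SE 0.61), Dhc93AB, an axonemal dynein heavy chain gene, at 1.87 (SE 0.44) and CG42302 at 1.71 (SE 0.55). For Dhc93AB the ratio was 0.23 in pair 1 and 2.37 in pair 2.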

How the data were processed

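RNA of 4 brain libraries was sequenced as paired reads. The libraries of S2 cells were not used here. Trimmomatic was used by the authors for trimming, STAR for alignment to dm6 and featureCounts for counting, and the deposited values are raw counts per gene, neither normalized nor pooled. The annotation, the strand setting and the treatment of reads with several matches are not given in the sources used here, so overlapping genes and close paralogs may share counts. Of 16729 rows, 4 were left out: Dscam1 and para, whose values were blank, and a row of exon coordinates after each. Positions and gene classes came from the Ensembl annotation of BDGP6, which has the coordinates of dm6, where 12510 genes matched by symbol, 3991 by an older symbol and 224 not.

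Counts were tested with edgeR 4.0.16 in R 4.3.3 (TMM factors, quasi-likelihood test, number as a block, Benjamini-Hochberg adjustment over 9737 genes). SE was obtained from the fold change on the log2 scale and the F statistic. With the block, a single residual degree of freedom per gene remains, so the spread is largely shared across genes. CPM used TMM-scaled totals, and ratios within a pair a prior count of 2. Where a label had no count, a floor of 3 counts per library was used. Counting intervals are exact 95% intervals and cover counting error only. The fit was tested on simulated data. Other steps used Python 3.11.15 with numpy 2.4.6 and pandas 2.3.3.

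The pairing rests on the methods, by which the extracted RNA was split, and on the numbers in the library names. It holds only if the labels do. Across genes, libraries of one number departed from their label's mean together (r = 0.902), and genes are not independent replicates. The sources call the 2 samples per label biological replicates. With 2 against 2 and the number as a block, p-values set the label difference against a spread between pairs that is largely shared across genes. A small p-value therefore does not show that the pairs of that gene agreed. For example, CR41602 had ratios of -0.03 and 3.06 and an adjusted p of 4.68e-07 in edgeR. The spread between the numbers is taken out by the block.

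The genes named were the 10 largest changes in each direction with the same sign in both pairs, the 10 most abundant called lower, the 5 most abundant called members of each list, and in the neuronal and glial lists the 5 most abundant members and any called higher. Others were picked after their values were seen, as were the added lists. The members, lists and rules were all chosen with earlier results of these data known. Alternatives were no block, DESeq2 1.42.0, its size factors, library totals, upper-quartile factors, 2 other count filters, an adjusted p under 0.01, no fold limit, thinning, each pair alone and each library left out.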

Additional observations from a re-analysis of the deposited data

Results flagged for a closer look

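A called gene and a list stood out because the pairs went in opposite directions, and in both cases the difference between the pairs was not tested, as each pair holds 1 library per label. snoRNA:Psi28S-2626, which guides pseudouridylation of 28S rRNA, was called lower, but its log2 ratio was 1.23 in pair 1, where it had 3 counts against 0, and -1.61 in pair 2, where it had 40 against 130 counts. The histone list had a median log2 ratio of -0.09 in pair 1 and 0.07 in pair 2, over 6 genes tested.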

How the results depend on the processing

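Without the replicate block, edgeR called 0 genes lower and 0 higher, and 0 in each of the lists. With 3 libraries and no block, where the lone library of a label was assumed to vary like the other label, leaving out each library gave 0 to 208 genes lower and 0 higher, 0 to 14 for eye, 0 to 13 for fat body and immune, 0 to 10 for muscle, 0 to 5 for sensory appendage, 0 to 3 for gut and cuticle, 0 to 2 for hemocyte, 0 to 1 for glial and 0 for trachea and for the higher neuronal and glial genes. The 208 were called without polyA-enriched 2, 68 without polyA-enriched 1 and 0 without either library labelled rRNA-depleted.

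With 10 counts in all 4 libraries, by which fewer genes are tested, 658 genes were lower and 6 higher, with 5 of muscle, 2 of gut, 3 of cuticle, 25 of immune, 3 of trachea and 6 of sensory appendage called lower and 2, 14, 6 and 3 of the general, transmitter, peptide and glial lists higher. With 1 count in any library, 8, 7 and 3 of the general, peptide and glial lists were higher. DESeq2 with the block called 845 genes lower, all of them among the 1180, 7 higher and 8 of cuticle lower. Without the fold limit 1867 were lower and 1085 higher, with 15 of hemocyte and 12 of glial lower. In pair 2 alone, 86 genes exceeded a ratio of 1 on the log2 scale. The causes were not tested.

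Named genes that changed sign were mostly small changes or rare RNAs. Gs2 was at -0.0053 with library totals, and nrv2 at 0.023 with DESeq2's size factors, 0.0231 with DESeq2 and 0.0024 with 1 count in any library. snoRNA:Psi28S-2626 was at 0.81 with DESeq2 and 1.23 in pair 1. With each library left out, the range was -0.0393 to 0.44 for Ace, -0.53 to 0.53 for Gs2, -0.12 to 0.61 for Pal2, -0.16 to 1.09 for VGlut, -0.0556 to 0.49 for nAChRalpha5, -0.45 to 0.33 for nrv2, -0.0477 to 0.75 for nrv3, -0.36 to 1.12 for pros, -0.31 to 0.93 for sNPF, -2.92 to 0.41 for Cpr64Ad, -2.35 to 0.11 for Cyp4g1, -1.90 to 7.53 for CG42302, -0.26 to 2.92 for Dhc93AB, -0.84 to 5.16 for Sfp77F, -6.65 to 8.75 for snoRNA:229, -2.70 to 7.57 for snoRNA:684, -7.36 to 9.35 for snoRNA:Or-aca4, -2.22 to 9.56 for snoRNA:Or-aca5, -4.67 to 7.60 for snoRNA:Psi28S-2626 and -2.54 to 4.801 for snoRNA:Psi28S-2876. Genes at a few counts per library are limited by depth.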

Other observations

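Further groups of genes were lower under the rRNA-depleted label, in lists put together after the values had been seen, so their counts describe these libraries and carry no test. The share called lower over all genes tested was 12.1%. Of 64 cytochrome P450 genes, which oxidize hormones and toxins, 38 were called lower, with a median log2 fold change of -1.62, and Cyp6g2 had 0.274 and 1.57 CPM against 77.9 and 55.9 CPM. Of 17 genes of fatty acid oxidation 14 were called lower, with a median of -1.23, among them whd, a carnitine palmitoyltransferase, at -1.01 and Mtpalpha, a subunit of the mitochondrial trifunctional protein, at -1.24. Of 10 genes of purine synthesis 5 were called, including Prat2, which starts the pathway, at -4.01. In the basement membrane list, 8 of 13 were called, and the laminin genes LanA, LanB1 and LanB2 were at -1.58, -1.60 and -2.07, whereas the perlecan trol was at 0.01. The growth factor genes of the Idgf list were lower in 6 of 6 cases in both pairs, with 5 called.

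Genes of cell division and of the female germline were lower as well, at low levels. Among all genes tested 12.1% were called lower, and among those between 1 and 3 CPM 31.1%. Of 53 genes of DNA replication and mitosis 26 were called lower and 0 higher, including CycB at -3.99, CycA at -1.99 and the replication genes RnrS at -3.59 and Mcm2 at -2.06. Of 39 ovary and germline genes 25 were called, with a median of -2.14. The eggshell gene Cp15 had no count under the rRNA-depleted label and 28 in all under the other, at least 4.62-fold lower, and Cp36 and Cp38 had 1 count each against 31 and 38.

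Most of the genes called lower, 833 of 1180, were in no list, and 523 of these carry a CG number and no name. Of all 9737 genes tested, 8770 were in no list, and 4179 of those carry a CG number. Examples of the named genes called lower and in no list were Tps1, which makes trehalose, with 11.2 and 34.7 CPM against 260 and 251 CPM, Est-6, a carboxylesterase, at -5.14 (SE 0.17), Aldh, an aldehyde dehydrogenase, at -1.60 (SE 0.10) and Thor, a translation repressor, at -4.05 (SE 0.18). All 7 activity-regulated genes, Hr38 among them, were lower in both pairs, against 33.6% of all genes. At an adjusted p under 0.05 in edgeR, 6 were lower, against 19.2% of all genes, and the median log2 fold change was -0.50. Only 1 of them, Hr38, was called lower (14.3%, against 12.1% of all genes).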
